A study of Mus musculus with 6 samples.

Results

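The genes described here encode 10 proteins that carry long-chain fatty acids into mitochondria and break them down, and their transcripts were measured in splenic CD8+ T cells of tumor-bearing mice after microwave ablation (MWA), with or without 2-deoxy-D-glucose (2DG). The 10 genes were named by symbol (Cpt1a, Slc25a20, Cpt2, Acadvl, Acadl, Acadm, Hadha, Hadhb, Etfa and Etfb) as core enzymes and carriers of the pathway. No rule on their levels was used, but they were chosen with earlier results of these data known. All 10 were found among the 28773 gene IDs of the files, and all 10 were among the 12444 genes tested, which had a mean of at least 1 FPKM over the 6 samples. FPKM counts fragments relative to transcript length and to the mapped fragments of the library, which allows levels of different genes to be compared.

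Both groups were female mice, 6 weeks of age, whose tumor was ablated with microwaves on day 10. MWA+PBS mice (n = 3, replicates 1 to 3) then received the vehicle PBS. MWA+2DG mice (n = 3, replicates 4 to 6) received 2DG, a glucose analogue that blocks hexokinase and phosphoglucose isomerase, at 500 mg/kg by intraperitoneal injection, at intervals of 2 days, starting on day 10 and ending on day 30. Values "after PBS" and "after 2DG" below are those of these groups, both ablated. Spleens were taken on day 35, 5 days after the last injection. CD8+ T cells were enriched with a magnetic kit. The tumor line and the mouse strain of these 6 libraries are not given in the labels, and the study's main model was the 4T1 mammary tumor in BALB/c mice. The comparison asks whether giving 2DG after ablation left the fatty acid oxidation genes of these cells at a different level. Nothing states that the 3 samples of a group came from separate mice or were pooled, so the p-values measure only the spread between these samples, which may be technical. Read depth is unknown, since FPKM holds no counts.

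Long-chain fatty acids cross into the mitochondrion only as carnitine esters. The enzyme CPT1 in the outer membrane makes the acylcarnitine, the SLC25A20 carrier exchanges it across the inner membrane, and CPT2 turns it back into acyl-CoA. Each round of beta-oxidation then begins with an acyl-CoA dehydrogenase that fits the chain length, goes on with hydratase, hydroxyacyl-CoA dehydrogenase and thiolase steps, and sheds acetyl-CoA. The trifunctional protein carries out these later steps for long chains, and separate enzymes do so for shorter ones. The dehydrogenases pass their electrons to the electron transfer flavoprotein, which hands them to the respiratory chain. In T cells the pathway is best known for its link with memory and regulatory cells, whereas activated effector cells rely more on glycolysis.

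The libraries held RNA of other cell types, in amounts that moved with the treatment, and the pure T cell share of any value below is therefore unknown. Markers of the T lineage were present in all 6 samples, and Cd8a, a chain of the CD8 co-receptor, was at 232 ± 6.96 FPKM (SD, n = 3) after PBS and at 366 ± 9.47 after 2DG, while Cd3e, a chain of the T cell receptor complex, was at 97.3 ± 7.98 and 127 ± 13.2. Of 20 T lineage genes, 16 were higher and 1 was lower after 2DG, and their summed FPKM lay between 1796 and 1882 after PBS and between 2482 and 2643 after 2DG. The 12 monocyte and macrophage markers, led by Hmox1 and C1qa, were all lower, with sums of 832.1 to 896.9 after PBS and 119.1 to 128.1 after 2DG. Of 12 neutrophil markers, led by S100a9 and Ngp, 11 were higher, with sums of 67.02 to 91.86 and 1596 to 1777. The sums of 10 erythroid markers, led by Hba-a1 and Hbb-bs and all lower after 2DG, lay between 310.1 and 366.1 after PBS and between 81.13 and 97.38 after 2DG, and those of 10 B cell markers, led by Cd79b and Cd79a and higher for all 9 tested, between 10.64 and 11.85 and between 58.42 and 63.62. Natural killer markers, led by Nkg7 and Eomes, which CD8+ T cells also express, summed to between 191.2 and 209.9 after PBS and between 251.2 and 266.6 after 2DG, although of the 4 tested only those 2 were higher and Tyrobp and Ncr1, named after their values were seen, were lower. The sums of dendritic cell markers, led by Itgax and Flt3, which were the 2 tested and both lower, lay between 9.28 and 11.19 and between 4.04 and 5.06. No marker of these lists was at 0 in all samples of a group. A list of 10 kidney tubule markers, written after the values were seen, summed to 39.49 and 75.48 FPKM in MWA+PBS replicates 1 and 2 and to at most 0.03 in the other samples. In bulk samples, fewer cells of a type and less RNA per cell cannot be told apart. Genes of the mitochondrial genome held between 21.4% and 22.8% of the summed FPKM after PBS and between 19.4% and 20.7% after 2DG. Whether these cell types or this share carried the changes of the fatty acid oxidation genes was not tested.

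**Figure D1:**
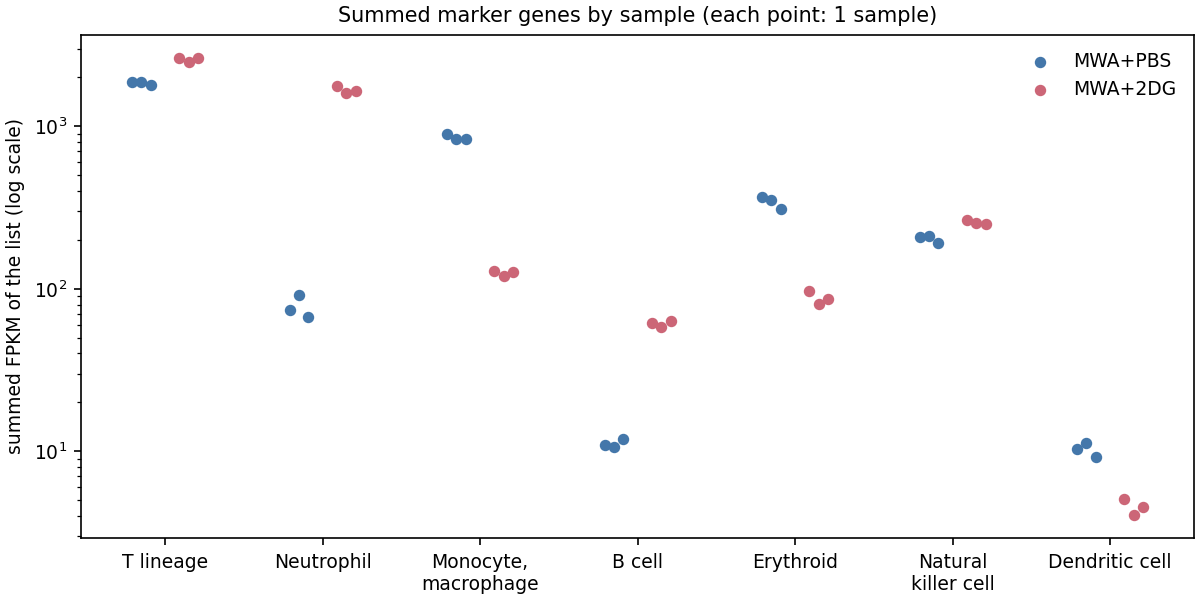
Summed FPKM of the marker genes of each cell type, on a log scale, with 1 point per sample and the groups MWA+PBS and MWA+2DG in separate colors. The neutrophil and B cell sums are higher in all 3 MWA+2DG samples, the macrophage and erythroid sums are lower, and the T lineage sums, the largest of the lists in all samples, lie at 1796 to 1882 against 2482 to 2643.

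The upstream sequences of the flavoprotein subunits and of the medium-chain dehydrogenase are shown first, since Etfb and Acadm were lower after 2DG and Etfa did not pass the test on the deposited scale. They are the 250 bases before the transcription start in RefSeq (GRCm38.p6), each printed 5′ to 3′ on the strand of the gene. All 10 genes matched an entry, and 5 of the windows overlapped no GENCODE M21 exon. Windows were searched on both strands for the GC box GGGCGG (reverse CCGCCC), the CCAAT box (reverse ATTGG), the nuclear receptor half-site AAGGTCA (reverse TGACCTT) and the ETS motif CCGGAAG (reverse CTTCCGG), and none of these letter strings contains another. Capitals mark a match. The windows of Etfa and Etfb, the subunits of the electron transfer flavoprotein, each held a pair of CCAAT matches near the start, and the window of Acadm, the medium-chain dehydrogenase, was the only one of the 10 with a half-site.
Etfa, chr9:55512244-55512493, minus strand: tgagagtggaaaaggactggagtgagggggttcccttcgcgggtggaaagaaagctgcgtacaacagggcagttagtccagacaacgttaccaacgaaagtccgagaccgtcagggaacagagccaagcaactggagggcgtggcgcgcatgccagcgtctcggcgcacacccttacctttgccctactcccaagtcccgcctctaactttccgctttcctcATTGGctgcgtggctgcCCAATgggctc
Etfb, chr7:43443822-43444071, plus strand: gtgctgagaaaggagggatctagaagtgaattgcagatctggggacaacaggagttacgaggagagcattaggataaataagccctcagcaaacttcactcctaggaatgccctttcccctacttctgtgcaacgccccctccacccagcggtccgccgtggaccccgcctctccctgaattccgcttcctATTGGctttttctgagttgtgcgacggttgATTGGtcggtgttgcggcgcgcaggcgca
Acadm, chr3:153944644-153944893, minus strand: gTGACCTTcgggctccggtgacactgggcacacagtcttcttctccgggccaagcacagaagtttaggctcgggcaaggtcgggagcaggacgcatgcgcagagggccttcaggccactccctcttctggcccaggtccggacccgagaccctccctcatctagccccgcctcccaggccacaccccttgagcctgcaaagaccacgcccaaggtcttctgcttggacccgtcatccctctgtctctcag

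Hadha and Hadhb, which encode the alpha and beta subunits of the trifunctional protein, are transcribed away from each other on chromosome 5, and 85 bases lie between their GENCODE starts. This stretch is shown because it lies between the GENCODE starts of both genes, whose ratio did not overlap between the groups. The RefSeq start of Hadha lies further inside the gene. It held 2 GC box matches.
Hadha-Hadhb, chr5:30155163-30155247, plus strand: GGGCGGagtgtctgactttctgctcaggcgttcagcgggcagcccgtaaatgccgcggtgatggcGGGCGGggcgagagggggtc

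The GC box was present in the windows of 6 of the 10 genes and in 32.7% of the 32851 RefSeq windows, where the windows of Hadha and Hadhb cover mostly the same bases and share a match. The CCAAT box was present in 3 of 10 (Cpt1a, Etfa and Etfb) and in 33.8% of all windows. The half-site was present in 1 of 10 and in 4.08%, and the ETS motif in 2 of 10 (Slc25a20 and Cpt2) and in 6.91%. A match is a description of the letters and not a bound site.

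On the deposited FPKM scale the 10 genes did not move as a block. Calls were made at a Benjamini-Hochberg adjusted p under 0.05 (limma on log2(FPKM + 1), adjusted over all 12444 genes). On the deposited scale Cpt1a, Acadl, Acadm and Etfb were lower in MWA+2DG, Acadvl was higher, and Slc25a20, Cpt2, Hadha, Hadhb and Etfa did not pass. On a T lineage scale given below, Acadvl did not pass and the other 9 passed as lower, as did 58.2% of all genes. On the deposited scale, 17.1% of all genes tested were lower and 22.3% were higher by this rule, against 4 and 1 of the 10. Each fit that left out 1 library called fewer, with 2 lower without MWA+2DG replicate 5 or MWA+PBS replicate 1, and 0 higher without MWA+2DG replicate 4. By the study's rule (unadjusted P under 0.05 and an absolute log2 fold change above 0.25), Cpt1a, Acadl and Etfb were lower and 0 members were higher, with 16.6% and 21.6% of all genes. Acadvl, at 0.24, lay just under this limit, and 1 member was higher by the rule with a pseudocount of 0.1, with GC content and length trends removed, and without MWA+2DG replicate 5, MWA+PBS replicate 1 or MWA+PBS replicate 3. The values of the groups did not overlap for 5 members that were lower (those 4 and Hadha) and 1 that was higher (Acadvl), with 21.9% and 30.2% of all genes. With all 6 samples on the deposited scale, by each rule the share of the 10 that was lower was above that of all genes and the share that was higher was below it. This is a description that was not tested, of genes chosen with earlier results of these data known. The median log2 fold change of the 10 was -0.07, and that of all genes tested was 0.05.

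**Figure D2:**
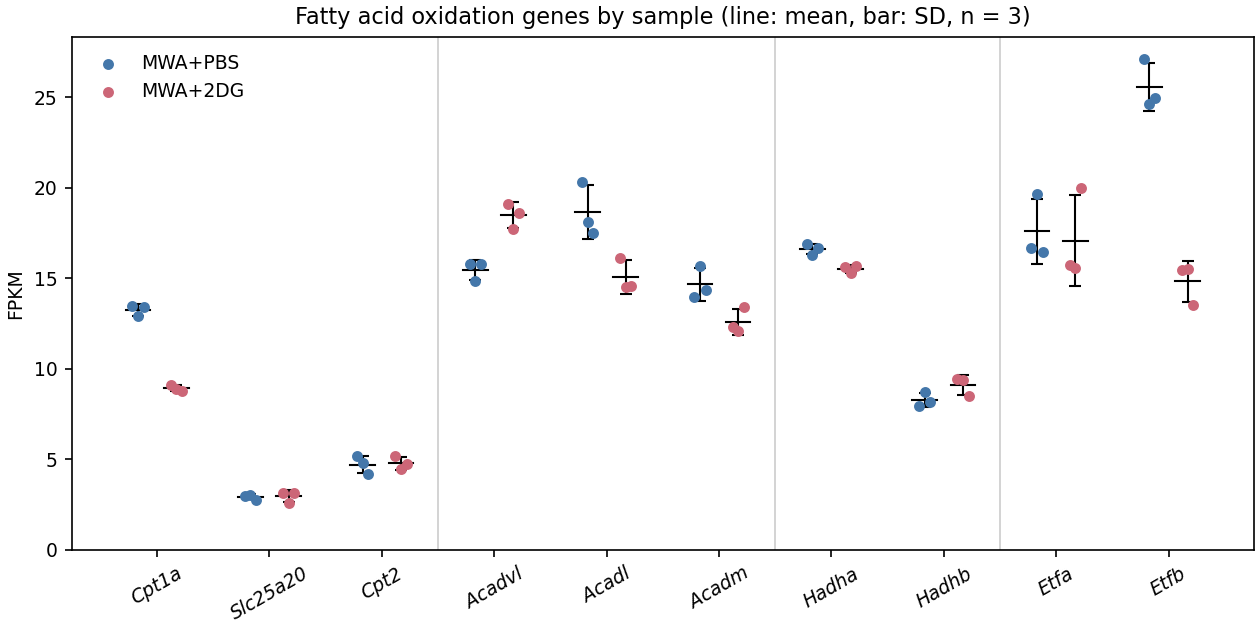
FPKM of the 10 genes in each sample, ordered by their step in the pathway (import, dehydrogenation, trifunctional protein, electron transfer), with points for samples, lines for the group mean and bars for the SD (n = 3 per group). Cpt1a and Etfb are clearly lower in MWA+2DG, at 8.92 against 13.3 and 14.8 against 25.6 FPKM, and the points of Slc25a20, Cpt2, Hadhb and Etfa overlap between groups.

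Of the import genes, only Cpt1a passed the test on the deposited scale. Cpt1a (chr19:3322334-3385733, plus strand) encodes the liver-type CPT1, the enzyme that malonyl-CoA inhibits and that sets the rate of import. It was at 13.45, 12.89 and 13.42 FPKM in MWA+PBS replicates 1 to 3 and at 9.1, 8.9 and 8.76 in MWA+2DG replicates 4 to 6. The groups lay well apart, and within each group the samples differed little (13.3 ± 0.315 and 8.92 ± 0.171 FPKM). The log2 fold change was -0.52 ± 0.05 (SE; 95% interval -0.65 to -0.40; limma, adjusted p = 0.000243), so that FPKM + 1 was 1.44-fold lower. The call held in 17 of 17 alternatives, at -0.87 to -0.44.

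The other CPT1 genes were close to absent, so Cpt1a carried nearly all CPT1 transcript in these libraries. Cpt1b, the muscle form, ranged from 0.16 to 1.03 FPKM after PBS and from 0.08 to 0.41 after 2DG. Cpt1c, the brain form, was at 0 after PBS and at 0.02 FPKM or less after 2DG. Neither reached the mean of 1 FPKM needed for the test.

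Slc25a20 (chr9:108662088-108684641, plus strand), the carnitine-acylcarnitine carrier, was the lowest of the 10 genes. It was at 2.97, 3.01 and 2.75 FPKM after PBS and at 3.14, 2.59 and 3.14 after 2DG. The groups overlapped, and the log2 fold change of 0.01 had a 95% interval of -0.19 to 0.21 (limma, adjusted p = 0.909). Its longest transcript shares a 366-base stretch, at an identity of 97.5% or more, with a set of genes at 0.25 FPKM or less, and a 227-base stretch at 96.5% with Tnfrsf22, which was at 7.14 to 8.66 FPKM. No source used here says how fragments from these stretches were assigned.

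Cpt2 (chr4:107903981-107923610, minus strand), the inner membrane transferase, did not pass either. Its values were 5.15, 4.76 and 4.19 FPKM after PBS and 5.16, 4.44 and 4.71 after 2DG, which overlapped. The log2 fold change was 0.02, with a 95% interval of -0.18 to 0.22 (limma, adjusted p = 0.881). The intervals of Slc25a20 and Cpt2 do not reach the change of Cpt1a, though a smaller change in either direction is within them. With T lineage scaling both turned to -0.33 and passed as lower (adjusted p = 0.00712 for Slc25a20 and 0.00648 for Cpt2), and Cpt1a was at -0.87.

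The ratio of Cpt1a to Cpt2 within a sample does not depend on a scaling by 1 factor per library. It was 2.61, 2.71 and 3.2 after PBS and 1.76, 2 and 1.86 after 2DG. The groups did not overlap, and the mean log2 ratio was 0.59 lower in MWA+2DG (1.50 against 0.91). The two-sided exact permutation test gave p = 0.1 (adjusted p = 0.1 over 4 ratios, n = 3 per group), the smallest p that 3 samples against 3 allow. How often ratios of other gene pairs do not overlap was not computed, for this ratio or those below.

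The 3 acyl-CoA dehydrogenases did not change in one direction on the deposited scale. Acadvl encodes the very-long-chain enzyme, Acadl the long-chain enzyme and Acadm the medium-chain enzyme. Acadvl (chr11:70010183-70015411, minus strand) was at 15.78, 14.84 and 15.78 FPKM after PBS and at 19.11, 17.7 and 18.63 after 2DG. All 3 MWA+2DG samples lay above all 3 MWA+PBS samples. The log2 fold change was 0.24 ± 0.06 (95% interval 0.11 to 0.37; limma, adjusted p = 0.0117), and it turned to -0.10 (adjusted p = 0.152) when samples were scaled to their T lineage genes. The call was also lost without MWA+2DG replicate 4 (adjusted p = 0.051) and without MWA+PBS replicates 1 and 2, the libraries with kidney tubule transcripts (adjusted p = 0.0914). In GENCODE M21, 1151 of the 2686 exonic bases of Acadvl overlap Dvl2, a Wnt pathway gene on the opposite strand. Dvl2 itself was at 5.78 ± 0.586 and 6.1 ± 0.351 FPKM (log2 fold change 0.07, adjusted p = 0.532). The libraries were strand-marked, but no source used here says whether FPKM was computed by strand, and without it fragments of the genes cannot be told apart.

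Acadl (chr1:66830839-66863277, minus strand) was at 20.35, 18.14 and 17.52 FPKM after PBS and at 16.13, 14.51 and 14.56 after 2DG. The groups did not overlap, although replicate 1 of MWA+PBS stood above the others and replicate 4 of MWA+2DG came close to the lowest MWA+PBS sample. The log2 fold change was -0.29 ± 0.07 (95% interval -0.46 to -0.12; limma, adjusted p = 0.0173). It stayed negative in 17 of 17 alternatives and passed in 13, and the call was lost when any of MWA+2DG replicate 5, MWA+2DG replicate 6 or MWA+PBS replicate 1 was left out, and when MWA+PBS replicates 1 and 2 were both left out, with the highest adjusted p at 0.139.

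Acadm (chr3:153922357-153944632, minus strand) was at 13.95, 15.69 and 14.36 FPKM after PBS and at 12.28, 12.06 and 13.4 after 2DG. Its groups were separated by a small gap. This was a log2 fold change of -0.21 ± 0.07 (95% interval -0.36 to -0.05; limma, adjusted p = 0.0447). The sign held in 17 of 17 alternatives, but the call held in only 8. Of the 6 fits that left out 1 library, it passed only in the fit without MWA+2DG replicate 6, and the adjusted p was between 0.0623 and 0.128 without any other. Without MWA+PBS replicates 1 and 2 it was 0.182.

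Acadm was closer to Acadvl after PBS than after 2DG. The ratio of Acadm to Acadvl was 0.884, 1.06 and 0.91 after PBS and 0.643, 0.681 and 0.719 after 2DG. The groups did not overlap, with a mean log2 ratio of -0.08 after PBS and -0.56 after 2DG, a difference of -0.48 (two-sided exact permutation p = 0.1, adjusted p = 0.1, n = 3 per group). The ratio of Acadl to Acadvl, which was not tested, was 1.29, 1.22 and 1.11 after PBS and 0.844, 0.82 and 0.782 after 2DG. Acadl was above Acadvl in each MWA+PBS sample and below it in each MWA+2DG sample. The ratio of Acadl to Acadm, also not tested, overlapped between the groups, at 1.46, 1.16 and 1.22 after PBS and 1.31, 1.2 and 1.09 after 2DG.

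Neither subunit of the trifunctional protein passed the test on the deposited scale. Hadha (chr5:30118304-30155162, minus strand), which carries the hydratase and hydroxyacyl-CoA dehydrogenase activities, was at 16.89, 16.31 and 16.66 FPKM after PBS and at 15.61, 15.27 and 15.66 after 2DG. Each MWA+2DG sample lay below each MWA+PBS sample, by a small margin. Its log2 fold change was -0.09, with a 95% interval of -0.21 to 0.02 (limma, adjusted p = 0.168). Hadhb (chr5:30155248-30184593, plus strand), which carries the thiolase activity, was at 7.96, 8.69 and 8.15 FPKM after PBS and at 9.44, 9.36 and 8.48 after 2DG. Its groups overlapped, and the log2 fold change was 0.12, with a 95% interval of -0.03 to 0.28 (limma, adjusted p = 0.177). With T lineage scaling both passed as lower, Hadha at -0.44 (adjusted p = 0.00031) and Hadhb, with its sign turned, at -0.22 (adjusted p = 0.0281).

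Hadha was above Hadhb in all 6 samples. Their ratio was 2.12, 1.88 and 2.04 after PBS and 1.65, 1.63 and 1.85 after 2DG. The ranges came close but did not overlap. The difference of the mean log2 ratio was -0.24 (1.01 against 0.77; two-sided exact permutation p = 0.1, adjusted p = 0.1, n = 3 per group). The 85-base stretch printed above lies between the GENCODE starts of both genes.

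Etfb showed the largest change of the 10 genes, and its partner Etfa did not pass the test on the deposited scale. Etfb (chr7:43444083-43457800, plus strand), the beta subunit of the electron transfer flavoprotein, was at 27.13, 24.65 and 24.97 FPKM after PBS and at 15.46, 15.52 and 13.5 after 2DG. The groups were far apart, at 25.6 ± 1.35 and 14.8 ± 1.15 FPKM. Etfb thus had a log2 fold change of -0.75 ± 0.07 (95% interval -0.92 to -0.58; limma, adjusted p = 0.000192), which is 1.68-fold lower on the FPKM + 1 scale. It passed in 17 of 17 alternatives, at -1.10 to -0.65. Gm45233, an annotated gene on the same strand, covers 617 of the 1164 exonic bases of Etfb, and it was not among the gene IDs with deposited values.

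Etfa (chr9:55454508-55512243, minus strand), the alpha subunit, which binds the flavin, was at 16.68, 19.67 and 16.47 FPKM after PBS and at 15.71, 15.56 and 19.99 after 2DG. In each group 1 sample (replicates 2 and 6) stood well above the others, and the groups overlapped. Etfa thus had a log2 fold change of -0.05, with a 95% interval of -0.30 to 0.21 (limma, adjusted p = 0.773), and with T lineage scaling it passed as lower at -0.39 (adjusted p = 0.0114). Etfdh, the oxidoreductase that takes electrons from the flavoprotein, was at 4.41 ± 0.296 and 4.37 ± 0.41 FPKM, which differ by -0.01 on the log2 scale (adjusted p = 0.914), and with T lineage scaling by -0.36 (adjusted p = 0.0059).

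The ratio of Etfa to Etfb was below 1 in each MWA+PBS sample and at 1 or above in each MWA+2DG sample. It was 0.615, 0.798 and 0.66 after PBS, where Etfb was the higher subunit, and 1.02, 1 and 1.48 after 2DG. The groups did not overlap, and replicate 6 of MWA+2DG stood highest. The mean log2 ratio was -0.54 after PBS and 0.20 after 2DG, a difference of 0.74 (two-sided exact permutation p = 0.1, adjusted p = 0.1, n = 3 per group). Etfbkmt, which encodes the methyltransferase of the beta subunit, was at 4.71, 4.42 and 4.27 FPKM after PBS and at 7.81, 6.82 and 7.59 after 2DG. It rose by 0.62 ± 0.07 on the log2 scale (limma, adjusted p = 0.000486), opposite to Etfb, and passed in 17 of 17 alternatives.

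**Figure D3:**
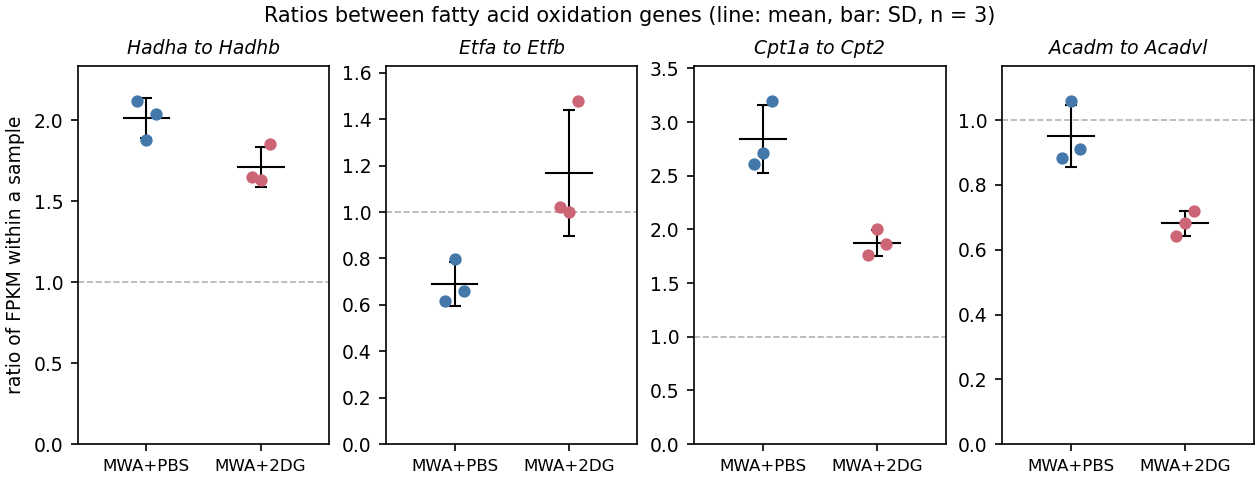
Ratio of the FPKM of paired genes in each sample for Hadha to Hadhb, Etfa to Etfb, Cpt1a to Cpt2 and Acadm to Acadvl, with a point for each sample, lines for the mean, bars for the SD (n = 3) and a dashed line at a ratio of 1. In none of the 4 panels do the groups overlap, and each exact permutation p is 0.1, the smallest possible. Of single genes, 21.9% were lower and 30.2% higher without overlap, and the share among ratios of other gene pairs was not computed. Each ratio but Hadha to Hadhb holds a gene that passed the test by itself on the deposited scale.

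The order of the 10 levels differed between the groups at its top. In MWA+PBS, Etfb was highest at 25.6 FPKM and its range lay above that of the next gene. Acadl, Etfa and Hadha followed, where Etfa overlapped both others and Acadl lay above Hadha, then Acadvl and Acadm, which overlapped, and then Cpt1a, Hadhb, Cpt2 and Slc25a20, each with a range apart from its neighbour. In MWA+2DG, Acadvl, Etfa, Hadha, Acadl and Etfb, in that order of mean FPKM from 18.5 to 14.8, each overlapped the next. Acadm stood apart below them at 12.6 FPKM, Hadhb and Cpt1a overlapped at 9.09 and 8.92, and Cpt2 and Slc25a20 were again last. Etfb and Acadvl thus exchanged places 1 and 5. The summed FPKM of the 10 genes, given as a description, was 140.3, 138.7 and 134.3 after PBS and 121.1, 115.9 and 120.8 after 2DG. The sums did not overlap (137.7 ± 3.12 and 119.3 ± 2.93), and the gap of Etfb alone was more than that of the other 9 genes together.

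Scaling changed how many of the genes counted as lower. For the T lineage scale, the mean log2(FPKM + 1) of 20 T lineage genes was taken in each sample. Its deviation from the mean over all samples was subtracted from log2(FPKM + 1) of every gene. The T lineage mean was 0.345 higher in MWA+2DG, and the median log2 fold change of all genes shifted by -0.35 to -0.30. Of all calls, 8.26% were higher in place of 56.5%. On that scale 9 members were lower at an adjusted p under 0.05, as were 58.2% of all genes, and Acadvl was at -0.10 (adjusted p = 0.152). By the study's rule 8 members were lower there, with 54.1% of all genes. A factor on FPKM would shift low genes less, since 1 is added before the log. Such a factor was used only for the summed FPKM given at the end, and calls of single genes with it were not tested. The subtraction shifts all genes alike, so differences from the median of all genes are fixed by its construction. On the log2 scale these differences were -0.57 for Cpt1a, -0.80 for Etfb, -0.34 for Acadl, -0.25 for Acadm and 0.20 for Acadvl, and lay between -0.14 and 0.08 for Slc25a20, Cpt2, Hadha, Hadhb and Etfa.

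**Figure D4:**
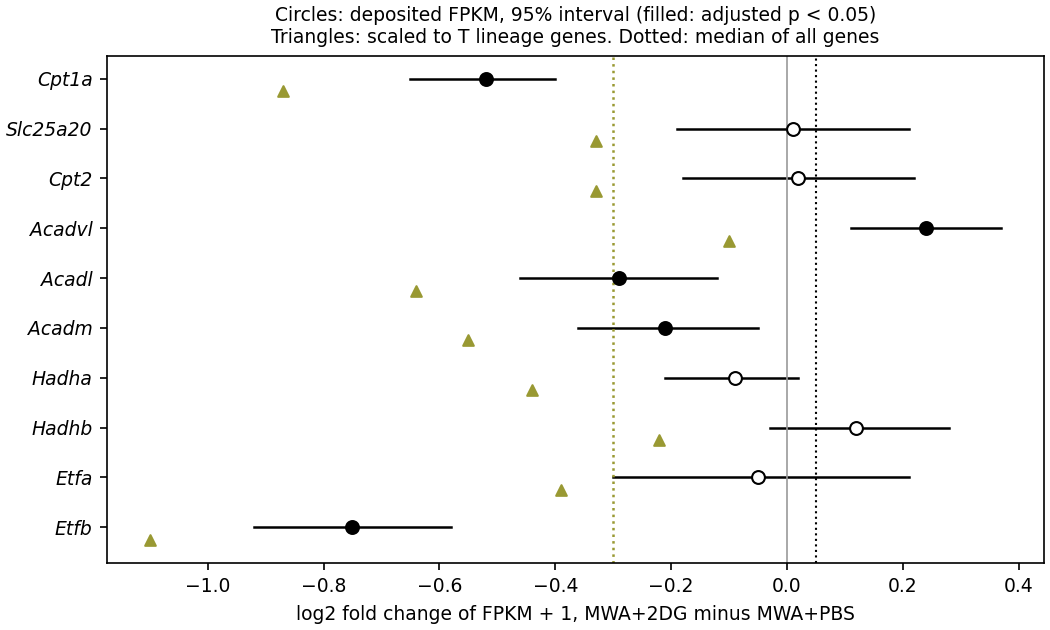
Log2 fold change of FPKM + 1 (MWA+2DG minus MWA+PBS) of each gene, as circles with 95% intervals on the deposited FPKM (filled where the adjusted p is under 0.05) and as triangles after scaling to T lineage genes, with dotted lines at the median of all genes on each scale. Cpt1a and Etfb, at -0.52 and -0.75 on the deposited scale, lie lowest, the triangles are all shifted down by the scaling, and Acadvl, at 0.24 on the deposited scale, is at -0.10 on the other.

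The rest of the pathway was described with 4 lists of 101 genes, of which 79 were tested. At an adjusted p under 0.05, 12 (15.2%) were lower and 9 (11.4%) were higher, against 17.1% and 22.3% of all genes, with a median log2 fold change of 0.03. With T lineage scaling 52 were lower and 2 were higher, where 58.2% of all genes were lower. With GC content and length trends removed, 12 were lower and 14 were higher, where 64.8% of all calls were higher. In no other alternative were more higher than lower. In the other mitochondrial oxidation genes, 1 of 26 tested genes was lower, 1 was higher and 24 did not pass, with a median of 0.09. The gene that was lower was Crat, the carnitine acetyltransferase, at 2.39 ± 0.0557 FPKM after PBS and 1.23 ± 0.182 after 2DG (log2 fold change -0.61, adjusted p = 0.00186), and the one that was higher was Etfbkmt. Acads, the short-chain dehydrogenase, was at 10.6 ± 0.481 and 8.41 ± 1.59 FPKM (log2 fold change -0.32, adjusted p = 0.0615). It passed in 6 of 17 alternatives, among them the fit without MWA+2DG replicate 4 (-0.45, adjusted p = 0.00579), median ratio scaling (adjusted p = 0.0371) and T lineage scaling (adjusted p = 0.00123). The enzymes for shorter chains that follow it had log2 fold changes of -0.17 for Echs1 (hydratase), -0.13 for Hadh (hydroxyacyl-CoA dehydrogenase) and 0.17 for Acaa2 (thiolase), at adjusted p of 0.235, 0.181 and 0.175. With T lineage scaling Echs1 (-0.52, adjusted p = 0.00202) and Hadh (-0.48, adjusted p = 0.000602) passed as lower, and Acaa2 turned to -0.18 (adjusted p = 0.0786).

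Of 16 tested genes of fatty acid uptake, activation and release from lipid stores, 4 were lower, 1 was higher and 11 did not pass, with a median of -0.06. Plin2, the coat protein of lipid droplets, was at 11.34, 11.34 and 10.65 FPKM after PBS and at 3.92, 4.3 and 4.03 after 2DG, and its groups lay far apart (log2 fold change -1.25 ± 0.06, adjusted p = 7.56e-06). Acsl3, an acyl-CoA synthetase of lipid droplets, fell by 0.82 on the log2 scale, and Lipa, the lysosomal acid lipase, by 0.39. Pnpla2, the adipose triglyceride lipase, had a log2 fold change of -0.26 (adjusted p = 0.0171), which was not called without MWA+2DG replicate 5, MWA+PBS replicate 1 or MWA+PBS replicate 3 (adjusted p of 0.0556, 0.066 and 0.0542). Acss1, the mitochondrial acetyl-CoA synthetase, had a log2 fold change of 0.23 (adjusted p = 0.0182) on the deposited scale and of -0.11 with T lineage scaling, and it was not called without MWA+2DG replicate 5, MWA+2DG replicate 6 or MWA+PBS replicate 3 (adjusted p of 0.0577, 0.0558 and 0.0571). Plin2, Lipa and Acsl3 are also expressed in macrophages, whose marker sums were 832.1 to 896.9 FPKM after PBS and 119.1 to 128.1 after 2DG. The part of these cells in the values was not tested.

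Of 24 tested regulators, 6 were lower, 3 were higher and 15 did not pass, with a median of -0.01. Pparg, a lipid-sensing nuclear receptor also found in splenic macrophages, was at 5.93, 5.11 and 4.64 FPKM after PBS and at 0.66, 0.8 and 1.21 after 2DG (log2 fold change -1.73 ± 0.13, adjusted p = 6.15e-05). Rxra, its dimer partner, was at 9.49 ± 0.972 and 3.44 ± 0.495 FPKM (log2 fold change -1.24, adjusted p = 0.000109). For both genes the groups were clearly separated. Nrip1, a corepressor of nuclear receptors, had a log2 fold change of -0.63, and Ppargc1b, a coactivator of mitochondrial genes, one of -0.61 (7.22 ± 0.41 and 4.38 ± 0.244 FPKM, adjusted p = 0.000447). Nrf1, which drives nuclear genes of the respiratory chain, had a log2 fold change of -0.29 (adjusted p = 0.0197), which was not called without MWA+2DG replicate 5, MWA+PBS replicate 1 or MWA+PBS replicate 3 (adjusted p of 0.0604, 0.0753 and 0.0549). Ppargc1a was at or below 0.06 FPKM and Ppara, a nuclear receptor known for inducing Cpt1a in liver, at or below 0.12 FPKM in all 6 samples, and neither was tested. Ppard, the third receptor of that family, was at 3.45 ± 0.271 and 3.16 ± 0.221 FPKM (log2 fold change -0.10, adjusted p = 0.365), and at -0.44 with T lineage scaling it passed as lower (adjusted p = 0.00299).

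Acaca makes the malonyl-CoA that feeds fatty acid synthesis and inhibits CPT1. It was at 3.89 ± 0.409 FPKM after PBS and 2.69 ± 0.121 after 2DG and was lower (log2 fold change -0.40, adjusted p = 0.00814), as Cpt1a was. Acacb, the form at the mitochondrial surface, was at 0.833 ± 0.212 and 0.987 ± 0.175 FPKM and was not tested. Pdk1, the kinase that holds back pyruvate oxidation, rose from 3.33 ± 0.11 to 5.98 ± 0.185 FPKM (log2 fold change 0.69, adjusted p = 0.000155). Sirt5, a mitochondrial deacylase, had a log2 fold change of 0.51 (adjusted p = 0.00931), and of 0.17 with T lineage scaling (adjusted p = 0.247). Prkag2, an AMPK subunit named only because it completes the 3 higher regulators, had a log2 fold change of 0.24 (adjusted p = 0.0387) and of -0.10 with T lineage scaling, and of the 6 fits that left out 1 library it passed only in that without MWA+PBS replicate 3.

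Of 13 tested peroxisomal genes, 1 was lower, 4 were higher and 8 did not pass, with a median of 0.08. Abcd2, an importer of very-long-chain acyl-CoA, was at 1.66 ± 0.122 FPKM after PBS and 0.767 ± 0.0321 after 2DG (log2 fold change -0.59, adjusted p = 0.00205). Crot, which makes carnitine esters of the shortened chains for export to mitochondria, was at 7.15, 8.33 and 6.83 FPKM after PBS and at 10.54, 10.05 and 10.4 after 2DG (log2 fold change 0.43, adjusted p = 0.00398), and the log2 fold change was 0.08 with T lineage scaling (adjusted p = 0.334). Acot8 (thioesterase), Acaa1a (thiolase) and Acox3 (oxidase) had log2 fold changes of 0.31, 0.31 and 0.28 on the deposited scale, and all 3 turned to between -0.07 and -0.04 with T lineage scaling. Acot8 was not called without MWA+2DG replicate 5 (adjusted p = 0.0577), and Acaa1a was not called without MWA+2DG replicate 4 (adjusted p = 0.054) or replicate 6 (adjusted p = 0.0568). Without MWA+PBS replicates 1 and 2, the libraries with kidney tubule transcripts, neither passed, and nor did Acox3, Acss1, Nrf1 or Prkag2 (adjusted p from 0.0592 for Acss1 to 0.335 for Prkag2).

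**Figure D5:**
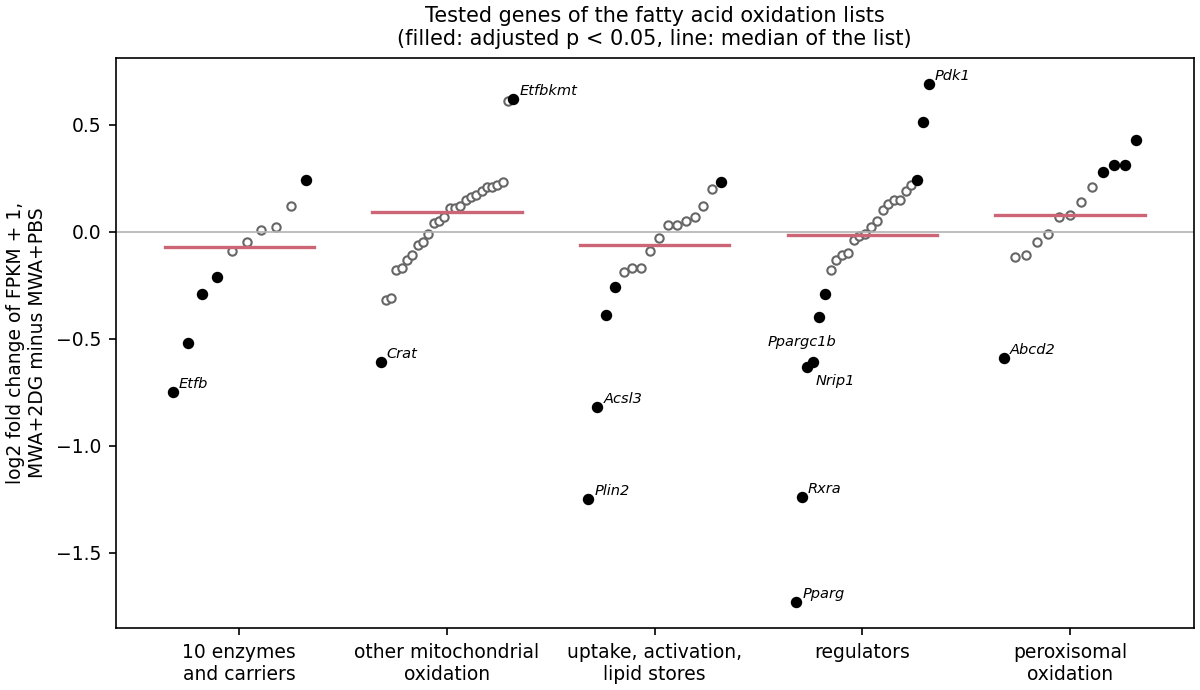
Log2 fold change of FPKM + 1 (MWA+2DG minus MWA+PBS) for the 10 enzymes and carriers and for the tested genes of the 4 other lists, sorted within each list, with filled points at an adjusted p under 0.05 and a line at each list's median. Most points are open and the medians lie between -0.07 and 0.09, and the largest changes are those of Pparg at -1.73, Plin2 at -1.25 and Rxra at -1.24.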

How the data were processed

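RNA of 6 mouse splenic CD8+ T cell samples was sequenced by the study as poly(A)-selected, strand-marked libraries with molecular identifiers. The authors deposited FPKM per Ensembl gene with 2 decimals, made with fastp, HISAT2, StringTie and ballgown per the methods. The submitters' processing notes list cutadapt 1.9, HISAT2 2.0.4, UMI-tools, StringTie 1.3.4d and mm9, without roles. FPKM depends on the total of its library, and no counts could be recovered, so the depth is unknown. Coordinates are those of GENCODE M21 (GRCm38) and RefSeq (GRCm38.p6), matched by gene ID or symbol and not converted from mm9. Symbols were found for all but 84 of 28773 IDs.

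Genes with a mean FPKM of at least 1 were fitted as log2(FPKM + 1) with limma 3.58.1 in R 4.3.3 (lmFit, eBayes with a trend), MWA+2DG minus MWA+PBS, without covariates, two-sided, with Benjamini-Hochberg adjustment over all 12444 genes. This scale understates the change of low genes. Log2 ratios were compared by exact permutation. The scripts were tested on simulated data. Copies were sought with BLAST at 95% identity over at least 200 bases. Alternatives were a pseudocount of 0.1, no filter, a mean FPKM of at least 5, 4 other scalings, eBayes without a trend, arrayWeights, and leaving out each sample. Removal of GC content and length trends and leaving out MWA+PBS replicates 1 and 2 were added after the data were seen. The 10 genes, the lists and the T lineage scaling were chosen with earlier results of these data known. Named were the 10 genes, 13 pathway genes whatever their result, up to 6 further called genes of each list with the largest fold change, Cd8a, Cd3e and the 2 highest markers of each other cell type.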

Additional observations from a re-analysis of the deposited data

How the results depend on the processing

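No paired analysis was possible because the groups share no replicate numbers (1 to 3 and 4 to 6). Of the fatty acid genes named, Cpt1a, Etfb, Etfbkmt, Crat, Plin2, Acsl3, Lipa, Pparg, Rxra, Nrip1, Ppargc1b, Acaca, Pdk1 and Abcd2 kept direction and call in each alternative that tested them.

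Scaling to T lineage genes moved the counts of calls by more than any other alternative: 9 of the 10 genes passed at adjusted p under 0.05 (5 as deposited), all lower like 58.2% of all genes, 8 by the study's rule (3), all lower like 54.1% of all genes, 54 other pathway genes passed (21), 52 of them lower, and the summed FPKM differed by -49.4 (-18.5). It reversed the log2 fold change of Slc25a20 (-0.33), Cpt2 (-0.33), Acadvl (-0.10), Hadhb (-0.22), Acaa2 (-0.18), Acss1 (-0.11), Acaa1a (-0.039), Acot8 (-0.039), Acox3 (-0.068) and Prkag2 (-0.10). Median ratio scaling reversed Slc25a20 (-0.023) and Cpt2 (-0.023), quantile normalization Cpt2 (-0.012), and arrayWeights Cpt2 (-0.025), Etfa (0.018) and Etfdh (0.029). All of these but Acadvl, Acss1, Acaa1a, Acot8, Acox3 and Prkag2 had failed the test as deposited. A pseudocount of 0.1 took Pparg from -1.73 to -2.46, Abcd2 from -0.59 to -1.02, Crat from -0.61 to -0.91 and Sirt5 from 0.51 to 0.85, all still called, and ended no call of the 10 genes. With a mean FPKM of at least 5, 12 other pathway genes passed, since fewer were tested, and Slc25a20 and Cpt2 were not among the tested.

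Leaving out each library gave 3 to 4 of the 10 genes by the study's rule, 17 to 23 other pathway genes, and a summed difference of -20.2 to -16.8. By adjusted p it gave 3 to 4, since Acadm or Acadl, or Acadvl, missed the threshold. The log2 ratio differed by -0.53 to -0.40 for Acadm to Acadvl, -0.65 to -0.51 for Cpt1a to Cpt2, 0.56 to 0.85 for Etfa to Etfb and -0.29 to -0.20 for Hadha to Hadhb. Log2 fold changes crossed 0 for Slc25a20 (-0.02 to 0.083), Cpt2 (-0.047 to 0.076), Etfa (-0.16 to 0.033) and Etfdh (-0.075 to 0.032). Without MWA+PBS replicates 1 and 2 the fit kept 1 MWA+PBS sample, assumed to vary like the other group. Then Cpt1a and Etfb were the 2 of 10 that passed, the summed FPKM differed by -15.0, and Etfa (0.041) and Etfdh (0.023) reversed. The cause of these changes was not tested. Read depth, which limits the low genes most, is unknown.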
